A study of Mus musculus with 2 samples.

Results

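The genes described are 9 members of the TGF-beta and activin system, chosen by name: the ligand genes Inhba, Tgfb1, Tgfb2 and Tgfb3, the activin inhibitor Fst, the receptor genes Tgfbr1, Tgfbr2 and Acvr1, and the TGF-beta induced matrix gene Tgfbi. All 9 were among the 18309 genes of the count tables. Their mRNA was counted in single cells by Drop-seq, which encloses each cell in a droplet with a barcoded bead, after fibroblasts had been grown together with crypts (the stem cell glands of the gut lining) from the small intestine of C57BL6 mice of 10 weeks. EP4, the prostaglandin E2 receptor that Ptger4 encodes, was blocked or left active. The Ptger4-OFF cultures received the EP4 antagonist ONO-AE3-208 in DMSO at 10 µM every second day and grew as budding organoids, while the Ptger4-ON cultures received DMSO alone and grew as spheroids, per the labels. Both were kept in Organoid Growth Media. With 1 library for each condition, pooled from 6 cultures, there is no replicate error and no test between conditions, and every interval is a 95% interval of counting error alone.

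TGF-beta ligands bind the type II receptor encoded by Tgfbr2, which recruits and activates the type I receptor encoded by Tgfbr1. That receptor phosphorylates SMAD2 and SMAD3, which enter the nucleus with SMAD4. Activin A, a dimer of Inhba-encoded chains, uses related receptors and the same SMADs, and follistatin (Fst) binds and neutralises it outside the cell. Acvr1 encodes ALK2, a type I receptor best known for BMP signalling through SMAD1 and SMAD5. In the gut, TGF-beta restrains epithelial growth and activates fibroblasts.

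Barcodes were split by marker UMIs (unique molecular identifiers, 1 for each captured mRNA molecule). Epcam, Krt8 and Krt18 marked epithelial cells, and Col1a1, Col1a2 and Col3a1 marked fibroblasts. The fibroblast class held 353 cells with 1813038 UMIs in Ptger4-OFF and 268 cells with 1734604 UMIs in Ptger4-ON, with medians of 4528 and 5026 UMIs per cell in Ptger4-OFF and Ptger4-ON. The epithelial class held 1166 cells with 7556674 UMIs in Ptger4-OFF and 562 cells with 5504898 UMIs in Ptger4-ON, with medians of 4267 and 5032 UMIs per cell in Ptger4-OFF and Ptger4-ON. Epithelial barcodes over 50000 UMIs numbered 6 and 16 in Ptger4-OFF and Ptger4-ON and held 5.0% and 23.0% of epithelial UMIs, and 1 barcode occurred in both libraries. All 10 fibroblast and all 10 epithelial markers were detected in their own class. Fibroblast markers that had not set the classes (7 genes) stood in epithelial cells at 0.255% of their fibroblast level in Ptger4-OFF and 0.284% in Ptger4-ON, a measure of stray fibroblast RNA. The markers of endothelial cells summed to at most 2.31 CPM in either class and those of leukocytes to at most 14.99 CPM.

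The stretch just before the start of the ligand genes with an entry in the RefSeq table is shown because EP4 acts through cyclic AMP, whose response element is TGACGTCA. Of the 9 genes, 7 had a promoter in that table, for GRCm38.p6; Fst and Tgfb3 are named only. Each sequence is the 250 bases before the start, 5′ to 3′ on the gene's own strand, with motif matches in capitals.
Inhba, chr13:16011601-16011850, plus strand: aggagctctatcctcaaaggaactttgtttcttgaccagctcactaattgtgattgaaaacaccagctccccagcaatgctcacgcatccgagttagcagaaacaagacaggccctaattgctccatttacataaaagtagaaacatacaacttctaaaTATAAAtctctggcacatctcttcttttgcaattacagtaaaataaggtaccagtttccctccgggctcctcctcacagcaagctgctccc
Tgfb1, chr7:25686752-25687001, plus strand: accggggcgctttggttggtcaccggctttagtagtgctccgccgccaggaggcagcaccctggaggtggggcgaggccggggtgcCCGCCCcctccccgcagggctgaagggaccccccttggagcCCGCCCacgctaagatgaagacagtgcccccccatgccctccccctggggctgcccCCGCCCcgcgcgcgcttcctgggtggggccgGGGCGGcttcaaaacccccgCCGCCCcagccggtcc
Tgfb2, chr1:186705990-186706239, minus strand: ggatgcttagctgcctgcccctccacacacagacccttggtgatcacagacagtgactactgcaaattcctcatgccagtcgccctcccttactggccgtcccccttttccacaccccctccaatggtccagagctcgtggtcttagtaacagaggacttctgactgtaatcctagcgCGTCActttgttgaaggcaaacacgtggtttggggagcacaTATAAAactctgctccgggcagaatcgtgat
The motifs searched on both strands were the full element TGACGTCA, the shorter TGACG (or CGTCA, both contained in the full element), the AP-1 motif TGANTCA, the TATA motif TATAAA (or TTTATA) and the GC box GGGCGG (or CCGCCC). The full element was in none of the 3 windows and occurs in 1.55% of 32851 promoters of that length, and the AP-1 motif was also in none of the 3, against 6.75% of promoters. The shorter motif was in the Tgfb2 window, starting 72 bases before the gene, and in 17.8% of promoters. TATAAA lay 91 bases before Inhba and 31 bases before Tgfb2, and in 12.4% of promoters. The Tgfb1 window held 5 GC boxes and no TATA motif, while the Inhba and Tgfb2 windows held no GC box, which 32.7% of promoters have. A match describes letters only, and no binding was measured.

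Most of the genes were fibroblast genes in these co-cultures. In counts for each 1000000 UMIs of the class (CPM), 8 of the 9 were past 1.5-fold higher in fibroblasts than in epithelial cells in both libraries, against 22.0% of 12676 genes, and 0 were past it the other way, against 31.9%. The exception, Acvr1, had 1.86-fold more in fibroblasts than in epithelial cells in Ptger4-OFF and 1.498-fold more in Ptger4-ON, just under the threshold. Inhba, Tgfb2 and Tgfb3 set the classes furthest apart and the receptors least. The plot of the 9 genes by class shows this split.

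**Figure D1:**
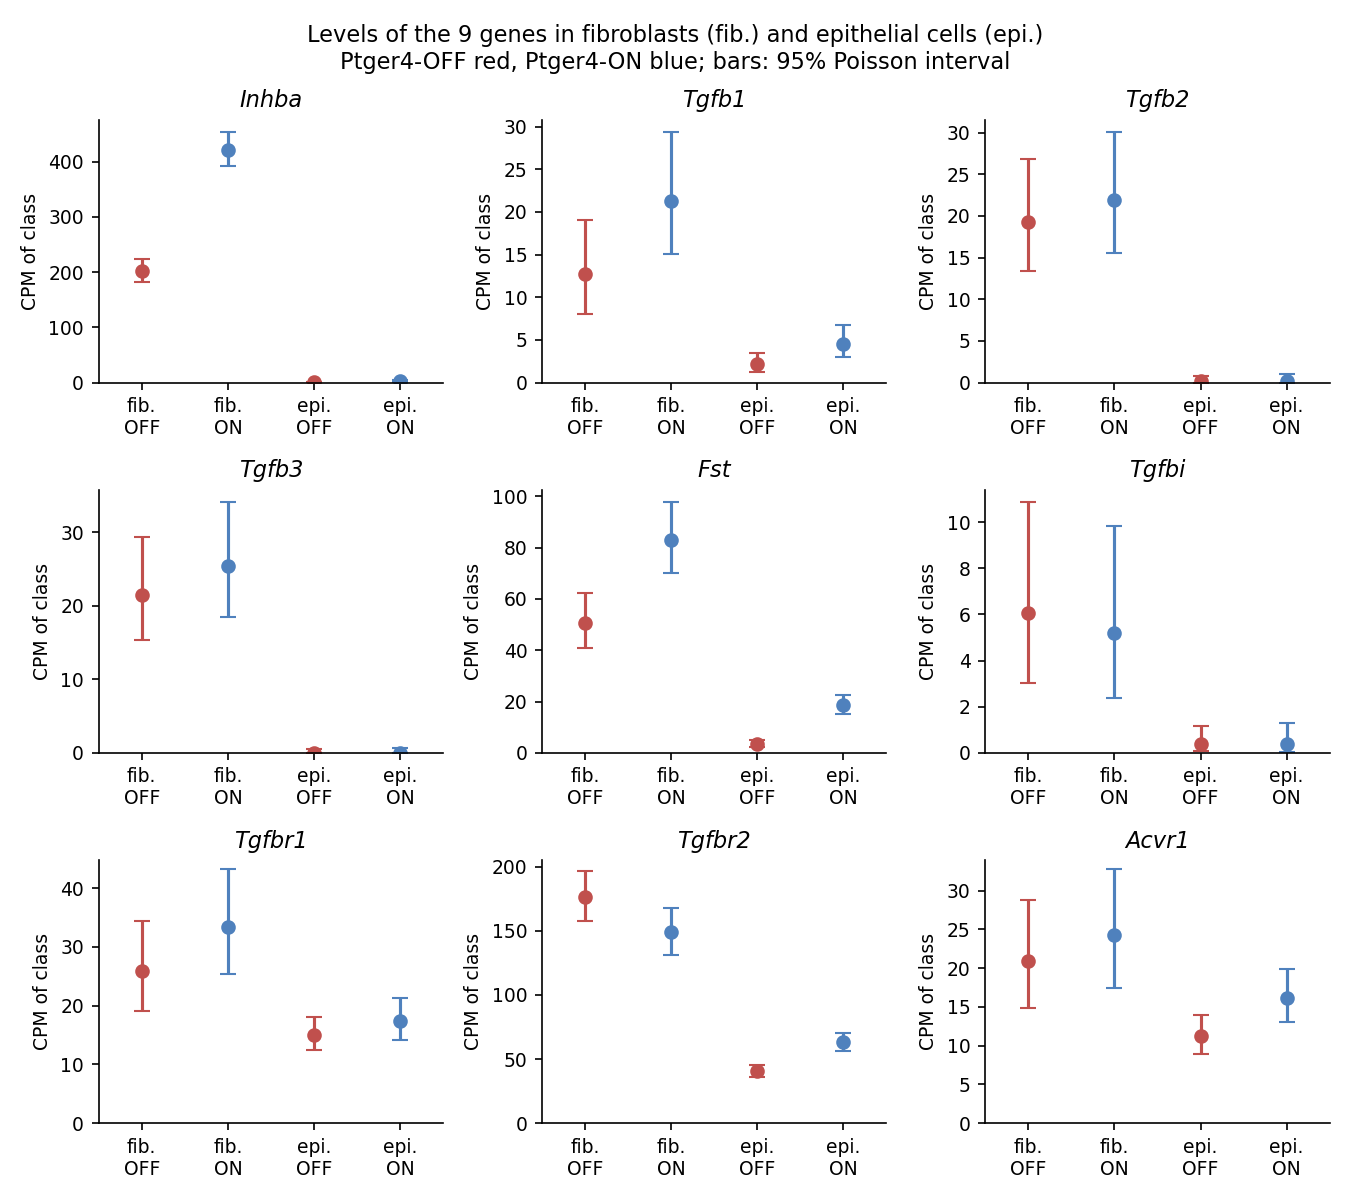
CPM of each of the 9 genes (vertical axis, from 0) in fibroblasts (fib.) and epithelial cells (epi.) of the Ptger4-OFF (red) and Ptger4-ON (blue) library, 1 library each; bars are exact 95% Poisson intervals. Inhba, Tgfb2 and Tgfb3 lay near 0 in epithelial cells, and Inhba in fibroblasts was 202 CPM in Ptger4-OFF against 422 CPM in Ptger4-ON.

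Among the ligands, Inhba (chr13:16011851-16031621, plus strand) had 366 UMIs in Ptger4-OFF fibroblasts and 732 in Ptger4-ON fibroblasts. In epithelial cells it had 6 UMIs in Ptger4-OFF and 13 in Ptger4-ON, a level of 0.393% and 0.560% of the fibroblast level. Stray fibroblast markers stood lower, at 0.255% in Ptger4-OFF and 0.284% in Ptger4-ON. With so few UMIs, how much of the epithelial Inhba was stray RNA was not tested. Tgfb2 (chr1:186622792-186705989, minus strand) had 1 epithelial UMI in each library, which puts the fibroblast level 146-fold above the epithelial level in Ptger4-OFF (24.5 to 5924) and 121-fold above it in Ptger4-ON (20.4 to 4887). Tgfb3 (chr12:86056745-86079041, minus strand) had none in epithelial cells. The interval of its fibroblast level over its epithelial level began at 42.0-fold in Ptger4-OFF and 36.3-fold in Ptger4-ON. Against a floor of 3 counts in the epithelial class, its fibroblast level was 54.2-fold higher in Ptger4-OFF and 46.5-fold higher in Ptger4-ON. Tgfb1 (chr7:25687002-25705077, plus strand) was the ligand most shared between the classes, 5.99-fold higher in fibroblasts than in epithelial cells in Ptger4-OFF and 4.70-fold in Ptger4-ON.

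The receptors were present on both sides. Tgfbr2 (chr9:116084293-116175360, minus strand) was 4.36-fold higher in fibroblasts than in epithelial cells in Ptger4-OFF and 2.36-fold higher in Ptger4-ON. Tgfbr1 (chr4:47353222-47414931, plus strand) was 1.72-fold higher in fibroblasts in Ptger4-OFF and 1.92-fold higher in Ptger4-ON. Of all Tgfbr1 UMIs in the classes, fibroblasts gave 29.2% in Ptger4-OFF and 37.7% in Ptger4-ON. Acvr1 lies at chr2:58388644-58567157 on the minus strand. Fst (chr13:114452290-114458951, minus strand) was 15.3-fold higher in fibroblasts than in epithelial cells in Ptger4-OFF but 4.44-fold higher in Ptger4-ON. Tgfbi (chr13:56609523-56639562, plus strand), which encodes a secreted matrix protein induced by TGF-beta, was scarce, with 11 and 9 UMIs in Ptger4-OFF and Ptger4-ON fibroblasts and 3 and 2 in Ptger4-OFF and Ptger4-ON epithelial cells. Coordinates are those of GENCODE vM21 on GRCm38 (mm10).

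In fibroblasts, the activin A gene and that of its inhibitor were both lower in Ptger4-OFF. Inhba was 202 CPM (182 to 224) in Ptger4-OFF against 422 CPM (392 to 454) in Ptger4-ON, a ratio OFF/ON of 0.478 (0.421 to 0.543). Fst was 50.7 CPM (40.9 to 62.2) in Ptger4-OFF against 83.0 CPM (70.0 to 97.7) in Ptger4-ON, a ratio of 0.611 (0.465 to 0.7995). These intervals cover counting error alone, so their separation is no test between the conditions. No share of all genes with separate intervals is given here. Tgfb1, the TGF-beta form most studied in fibrosis, was 12.7 CPM (23 UMIs) in Ptger4-OFF and 21.3 CPM (37 UMIs) in Ptger4-ON, a ratio of 0.595 whose interval (0.337 to 1.03) includes 1.

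These 3 of the 9 genes were lower past 1.5-fold in Ptger4-OFF fibroblasts and 0 were higher, against 8.08% of 9721 fibroblast genes lower and 6.4% higher. The median log2(OFF/ON) was -0.24 over the 9 genes and 0.01 over all 9721. The other ligands differed less. Tgfb2 was 19.3 CPM in Ptger4-OFF and 21.9 CPM in Ptger4-ON (ratio 0.881, 0.541 to 1.43). Tgfb3 was 21.5 CPM in Ptger4-OFF and 25.4 CPM in Ptger4-ON (ratio 0.848, 0.537 to 1.34). With 35 to 44 UMIs in each library, a 1.5-fold difference in these genes was not detectable at this depth.

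No receptor gene passed 1.5-fold in fibroblasts. Tgfbr2 was 177 CPM (320 UMIs) in Ptger4-OFF and 149 CPM (258 UMIs) in Ptger4-ON, a ratio of 1.19 (1.00 to 1.40). Tgfbr1 was 25.9 CPM in Ptger4-OFF and 33.4 CPM in Ptger4-ON (ratio 0.775, 0.516 to 1.16). Acvr1 was 21.0 CPM in Ptger4-OFF and 24.2 CPM in Ptger4-ON (ratio 0.866, 0.543 to 1.38). The receptor with the most UMIs was thus on the other side of 1 from the ligands, and the intervals of the other receptors included 1. The Tgfbr2 gap was widest in a small cluster of cycling fibroblasts, given with the clusters below. With equal weight for each cell, Tgfbr2, Tgfb2 and Tgfb3 in fibroblasts had log2 ratios of -0.06, 0.06 and 0.08, each on the other side of 0. Tgfbi was 6.07 CPM in Ptger4-OFF and 5.19 CPM in Ptger4-ON (ratio 1.17, 0.441 to 3.19).

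With cells taken at their full depth, the Inhba difference was seen in the number of UMIs per cell more than in the share of cells with any. At least 1 Inhba UMI was found in 147 of 353 Ptger4-OFF fibroblasts (41.6%, 36.4 to 47.0%) and in 135 of 268 Ptger4-ON fibroblasts (50.4%, 44.2 to 56.5%). At least 5 UMIs were found in 12 Ptger4-OFF fibroblasts (3.40%) and in 36 Ptger4-ON fibroblasts (13.4%). The richest cell held 25 UMIs in Ptger4-OFF and 70 in Ptger4-ON. The 5 richest cells gave 23.8% of the Inhba UMIs of Ptger4-OFF and 33.5% of those of Ptger4-ON. Without them the ratio OFF/ON was 0.539, an alternative added after the data were seen.

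**Figure D2:**
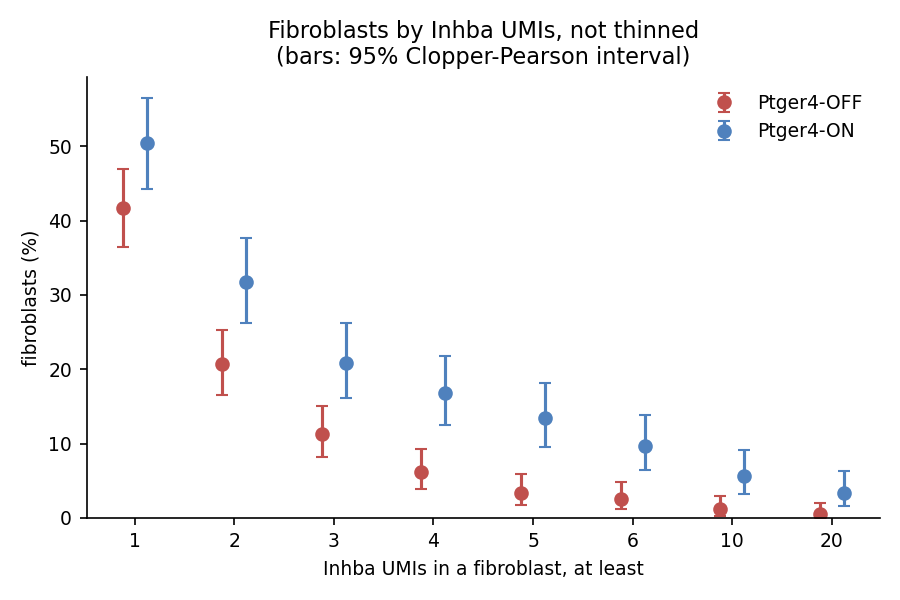
Percent of fibroblasts (vertical axis) with at least the number of Inhba UMIs on the horizontal axis, in Ptger4-OFF (red, 353 cells) and Ptger4-ON (blue, 268 cells); bars are exact 95% Clopper-Pearson intervals and cells were not thinned. At 5 or more UMIs the shares were 3.40% in Ptger4-OFF and 13.4% in Ptger4-ON.

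Depth per cell differed, so cells were also thinned to 1000 UMIs each, which 343 Ptger4-OFF and 248 Ptger4-ON fibroblasts reached. Inhba was then found in 14.6% (11.02 to 18.8%) of Ptger4-OFF and 21.8% (16.8 to 27.4%) of Ptger4-ON fibroblasts. In thinned epithelial cells it was found in 1 of 1135 in Ptger4-OFF (0.0881%) and 2 of 518 in Ptger4-ON (0.386%). Tgfbr2 was found in 17.2% of Ptger4-OFF and 17.3% of Ptger4-ON fibroblasts after thinning. It was found in 4.85% (3.67 to 6.26%) of Ptger4-OFF and 7.53% (5.41 to 10.1%) of Ptger4-ON epithelial cells, against 17.3% and 30.8% without thinning in Ptger4-OFF and Ptger4-ON. Tgfb3 was in 0 of 1135 thinned Ptger4-OFF epithelial cells, and in 0 of 518 Ptger4-ON epithelial cells. By a floor of 3 counts this allows up to 0.264% of Ptger4-OFF and 0.579% of Ptger4-ON cells with a UMI after thinning, and it sets no limit on cells that express the gene. With thinning to 500 UMIs instead, Inhba was found in 6.80% (4.40 to 9.95%) of 353 Ptger4-OFF fibroblasts. In Ptger4-ON it was then found in 14.9% (10.9 to 19.8%) of 268 fibroblasts, in relative terms a wider gap than at full depth.

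Fibroblasts fell into 5 clusters, formed without the 9 genes and the pathway genes, and Inhba did not differ alike in all. The clusters were F1 (cycling cells), F2 (led by Ctla2a, Chodl and Mgp), F3 (Grem1-type, with Grem1, Mmp10 and Rspo3, markers of fibroblasts near the crypt base), F4 (led by Pgf, Cryab and Acta2, which encodes smooth muscle actin) and F5 (led by Il33, Cxcl10 and Lcn2). In F4 Inhba was 228 CPM (185 to 277) in 107 Ptger4-OFF cells against 774 CPM (671 to 888) in 57 Ptger4-ON cells, a ratio of 0.294 (0.229 to 0.375). A UMI of it was found in 48 of those Ptger4-OFF cells and in 28 of those Ptger4-ON cells. The part of the richest cells in the F4 ratio was not tested. In F2 Inhba was 173 CPM in Ptger4-OFF and 316 CPM in Ptger4-ON (ratio 0.548, 0.441 to 0.678). In F3 it was 318 CPM in Ptger4-OFF and 487 CPM in Ptger4-ON (ratio 0.654, 0.488 to 0.870). In F5 it was 207 CPM in Ptger4-OFF and 156 CPM in Ptger4-ON, with a ratio of 1.33 and an interval that includes 1 (0.773 to 2.37). Inhba was thus lower in Ptger4-OFF in F2, F3 and F4, and of F2 to F5 it was F5 where it was not. Among F2 to F5 the order of levels in Ptger4-OFF was F3, F4, F5, F2, with intervals of neighbours that overlapped. The first place of F3 rested on the clusters: with fibroblast types set by marker UMIs, the log2 ratio of Inhba in Grem1-type over other fibroblasts of Ptger4-OFF was -0.14 in place of 0.79. In Ptger4-ON it was F4, F3, F2, F5, with intervals of neighbours that did not overlap. The cycling cluster F1 is left out of these orders, since its 17 Ptger4-ON cells are under the minimum of 20. Its Inhba level was 70.2 CPM (10 UMIs) in 20 Ptger4-OFF cells against 492 CPM (92 UMIs, 51 of them in 1 cell) in the 17 Ptger4-ON cells, and its Fst level was 56.2 CPM (8 UMIs) in Ptger4-OFF against 192 CPM (36 UMIs) in Ptger4-ON, both added after the data were seen.

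**Figure D3:**
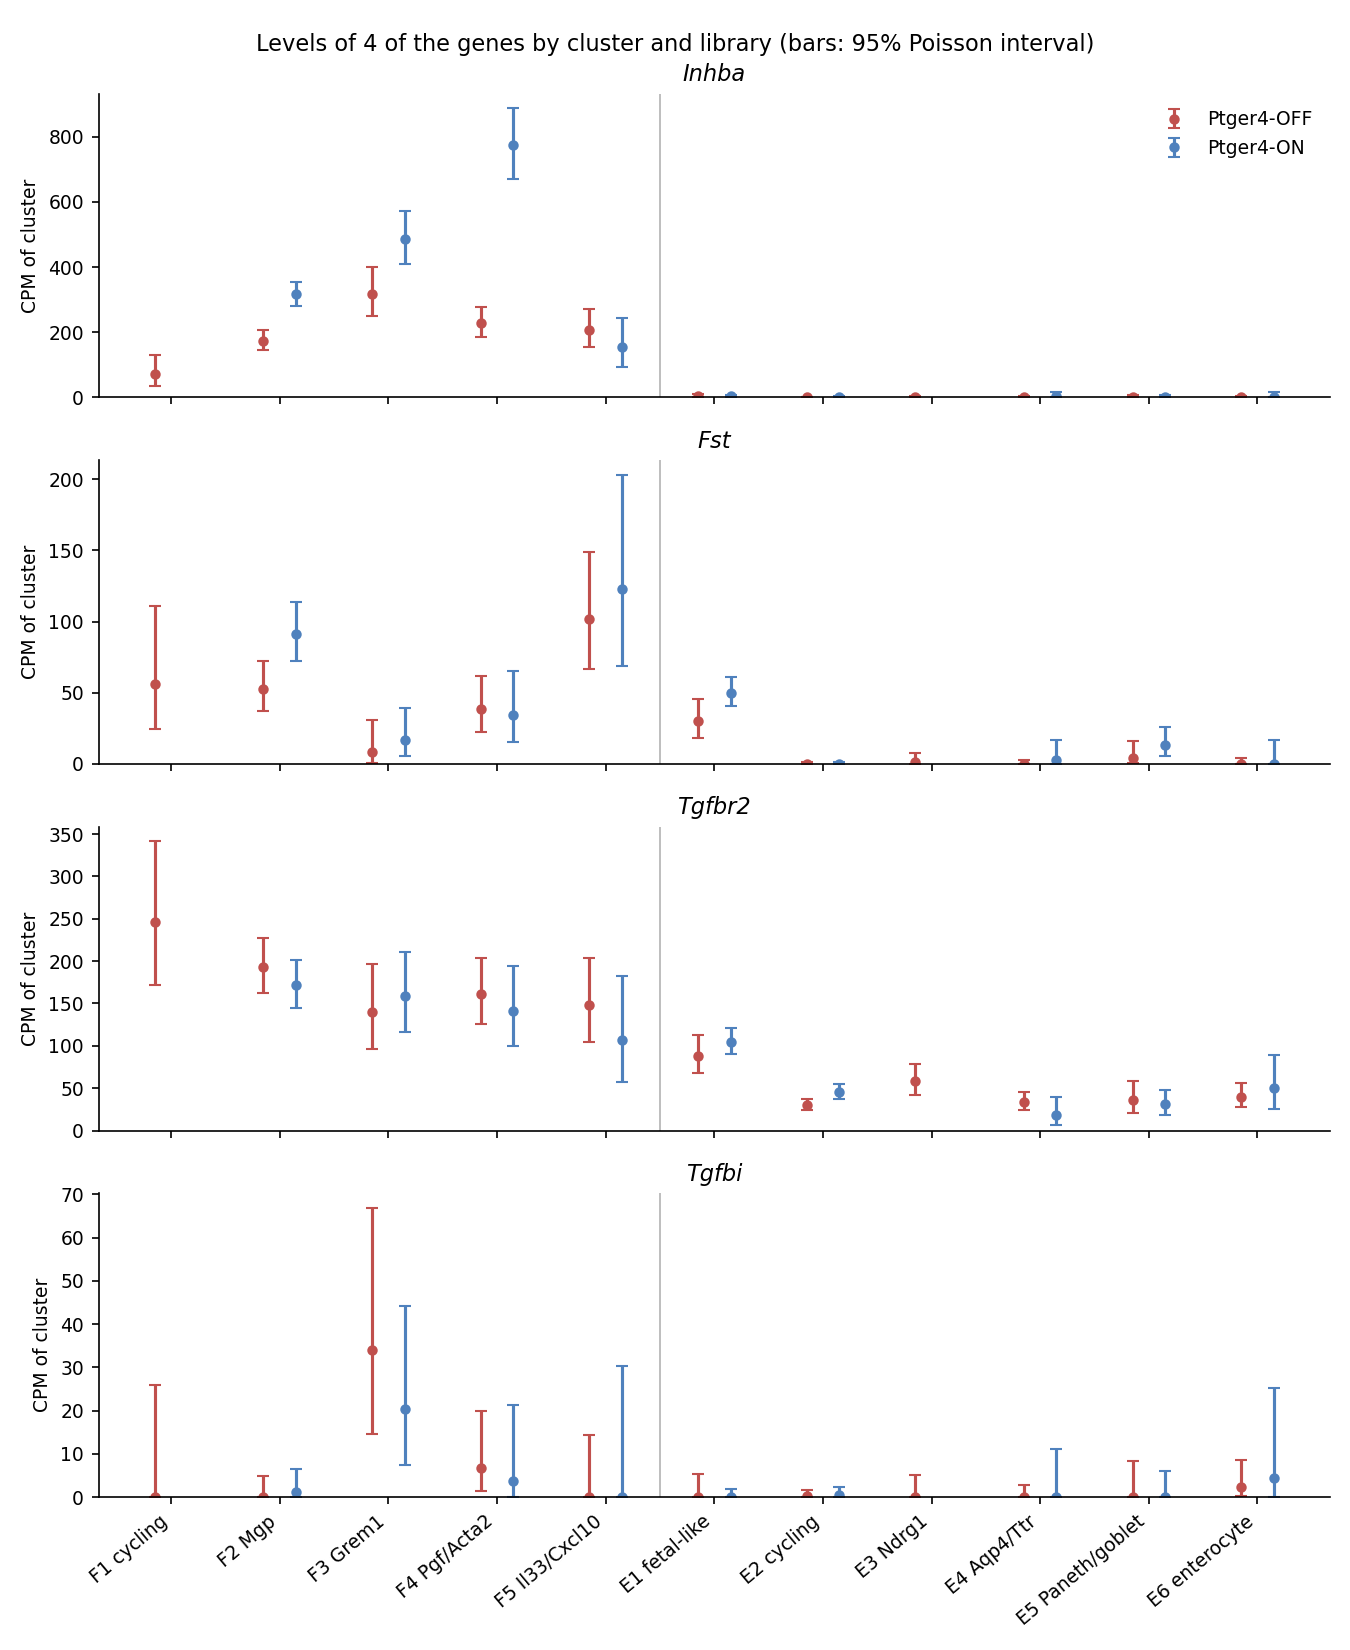
CPM of Inhba, Fst, Tgfbr2 and Tgfbi (vertical axis, from 0) by fibroblast cluster (left of the grey line) and epithelial cluster (right of it) in Ptger4-OFF (red) and Ptger4-ON (blue), where the cluster has at least 20 cells; bars are exact 95% Poisson intervals. Inhba in F4 was 228 CPM in Ptger4-OFF against 774 CPM in Ptger4-ON, and epithelial Fst stood mainly in E1, at 29.9 CPM in Ptger4-OFF and 50.2 CPM in Ptger4-ON.

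Fst had another distribution over the fibroblasts than Inhba. It was lowest in the Grem1-type cluster F3, with 2 UMIs (8.49 CPM) in Ptger4-OFF and 5 UMIs (16.9 CPM) in Ptger4-ON, and the remaining fibroblasts had 6.72-fold more than F3 in Ptger4-OFF and 5.71-fold more in Ptger4-ON. Among F2 to F5 it was highest in F5, at 102 CPM in Ptger4-OFF and 123 CPM in Ptger4-ON. The largest count was in F2, where it was 52.7 CPM in Ptger4-OFF and 91.0 CPM in Ptger4-ON (ratio 0.579, 0.384 to 0.860). In F4 it was 38.7 CPM in Ptger4-OFF and 34.3 CPM in Ptger4-ON (ratio 1.13, 0.475 to 2.87). Fst rested close to the threshold: without the 5 richest cells the Ptger4-ON level was 1.495-fold the Ptger4-OFF level, and without the cycling cluster 1.39-fold, both alternatives added after the data were seen.

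Tgfbi stood mainly in F3, which held 8 of its 11 UMIs in Ptger4-OFF and 6 of its 9 in Ptger4-ON, in 4 and 2 cells of Ptger4-OFF and Ptger4-ON. The F3 level was 34.0 CPM in Ptger4-OFF and 20.3 CPM in Ptger4-ON, 17.9-fold (4.29 to 104.5) and 9.73-fold (2.08 to 60.1) above the other fibroblasts of Ptger4-OFF and Ptger4-ON. Among F2 to F5, Tgfbr1 was also highest in F3, at 46.7 CPM (11 UMIs) in Ptger4-OFF and 64.2 CPM (19 UMIs) in Ptger4-ON. That was 2.05-fold (0.939 to 4.11) and 2.37-fold (1.29 to 4.20) above the other fibroblasts of Ptger4-OFF and Ptger4-ON, and the Ptger4-OFF interval includes 1. Tgfbr2 varied little among F2 to F5, between 140 and 193 CPM in Ptger4-OFF and between 107 and 172 CPM in Ptger4-ON. Its ratio OFF/ON ran from 0.881 in F3 to 1.39 in F5, with intervals that all include 1. In the cycling cluster F1 Tgfbr2 was 246 CPM (35 UMIs, 171 to 342) in 20 Ptger4-OFF cells. There it was 64.1 CPM (12 UMIs, 33.1 to 112) in 17 Ptger4-ON cells, values added after the data were seen. The part of F1 in the class ratio was not tested. Tgfb1 had 25.5 CPM in F3 and 14.9 CPM in F2 of Ptger4-OFF, against 23.7 CPM in F3 and 25.4 CPM in F2 of Ptger4-ON, each from 6 to 22 UMIs.

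The mix of fibroblast clusters differed between the libraries. F4 held 30.3% of Ptger4-OFF and 21.3% of Ptger4-ON fibroblasts, and F2 held 29.2% and 40.7% of Ptger4-OFF and Ptger4-ON fibroblasts. The 4 detected pericyte markers summed to 7.17 CPM in Ptger4-OFF and 29.4 CPM in Ptger4-ON fibroblasts, and the 5 smooth muscle markers to 264 CPM and 228 CPM in Ptger4-OFF and Ptger4-ON, mostly from Actg2. Epithelial markers that had not set the classes stood in fibroblasts at 1.68% of their epithelial level in Ptger4-OFF and 1.30% in Ptger4-ON. Their part in the differences was not tested.

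In epithelial cells the inhibitor Fst and the receptor Tgfbr2 were lower in Ptger4-OFF. Fst was 3.31 CPM (25 UMIs, 2.14 to 4.88) in Ptger4-OFF against 18.7 CPM (103 UMIs, 15.3 to 22.7) in Ptger4-ON, a ratio of 0.177 (0.109 to 0.276). Tgfbr2 was 40.5 CPM (36.1 to 45.3) in Ptger4-OFF against 63.0 CPM (56.6 to 70.0) in Ptger4-ON, a ratio of 0.642 (0.549 to 0.751). Tgfb1 was 2.12 CPM (16 UMIs) in Ptger4-OFF against 4.54 CPM (25 UMIs) in Ptger4-ON, a ratio of 0.466 (0.233 to 0.908). With equal weight for each cell the log2 ratio of Tgfb1 was -0.52, short of 1.5-fold.

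With at least 20 UMIs over both libraries, 5 of the 9 genes could be counted in epithelial cells. Of these, 3 were lower past 1.5-fold in Ptger4-OFF and 0 were higher, against 10.7% of 11600 epithelial genes lower and 7.33% higher. The median log2(OFF/ON) was -0.64 over the 5 genes and -0.04 over all 11600. Acvr1 was 11.2 CPM in Ptger4-OFF and 16.2 CPM in Ptger4-ON (ratio 0.696, 0.511 to 0.947). Tgfbr1 was 15.1 CPM in Ptger4-OFF and 17.4 CPM in Ptger4-ON (ratio 0.865, 0.654 to 1.15). The other 4 genes, Inhba, Tgfb2, Tgfb3 and Tgfbi, had at most 19 epithelial UMIs over both libraries.

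Epithelial Fst was nearly all in 1 cluster. E1 is fetal-like, with Clu, Msln, Anxa1 and Ly6a, genes of the fetal and regenerating gut lining, and held 72 Ptger4-OFF and 177 Ptger4-ON cells. It gave 21 of the 25 epithelial Fst UMIs of Ptger4-OFF and 94 of the 103 of Ptger4-ON. Within E1 the Fst level was 29.9 CPM (18.5 to 45.7) in Ptger4-OFF and 50.2 CPM (40.5 to 61.4) in Ptger4-ON, a ratio of 0.596 (0.352 to 0.964). E1 held 6.17% of Ptger4-OFF and 31.5% of Ptger4-ON epithelial cells. Outside E1, 4 UMIs in Ptger4-OFF and 9 in Ptger4-ON remained. Few cells carried the transcript, 10 in Ptger4-OFF, of which 1 held 13 UMIs, and 36 in Ptger4-ON, of which 1 held 24 UMIs. The 5 richest cells gave 80% of the Fst UMIs of Ptger4-OFF and 56.3% of those of Ptger4-ON. Without them the ratio OFF/ON was 0.0862, so the value moved by over 1.5 times with these few cells. The cells left out were 5 of the 10 with Fst in Ptger4-OFF but 5 of the 36 in Ptger4-ON. This alternative therefore cannot decide the direction.

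Of the receptors, Tgfbr2 was also highest in E1. Its level there was 88.2 CPM in Ptger4-OFF and 105 CPM in Ptger4-ON, 2.48-fold (1.84 to 3.29) and 2.54-fold (2.05 to 3.17) above the other epithelial cells of Ptger4-OFF and Ptger4-ON. Within E1 the ratio OFF/ON was 0.839 (0.620 to 1.12). Outside E1 Tgfbr2 was 35.6 CPM in Ptger4-OFF and 41.3 CPM in Ptger4-ON, a ratio of 0.861, so both values were nearer to 1 than the class ratio of 0.642. Without E1, an alternative added after the data were seen, 1 gene, Tgfb1, was lower past 1.5-fold in place of 3. That gene then rested on 12 UMIs in Ptger4-OFF and 12 in Ptger4-ON. The share of all epithelial genes past 1.5-fold without E1 is not given here, so this count has no background. Fst had 4 UMIs (0.584 CPM) in Ptger4-OFF and 9 UMIs (2.48 CPM) in Ptger4-ON outside E1, under the minimum of 20 UMIs, and was not counted there. Acvr1 in E1 was 27.0 CPM in Ptger4-OFF and 20.8 CPM in Ptger4-ON, 2.81-fold (1.59 to 4.74) and 1.51-fold (0.968 to 2.34) above the other epithelial cells of Ptger4-OFF and Ptger4-ON, and in Ptger4-ON it was about as high in E4, at 21.2 CPM from 7 UMIs.

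Elsewhere in the epithelium Tgfbr2 went different ways. In the cycling cluster E2 (Top2a, Cenpe, Cenpf) it was 30.4 CPM in Ptger4-OFF and 46.0 CPM in Ptger4-ON (ratio 0.661, 0.5004 to 0.873). In the unnamed cluster E4, led by Aqp4, Ifitm3 and Ttr, it was 33.9 CPM (45 UMIs) in Ptger4-OFF and 18.2 CPM (6 UMIs) in Ptger4-ON (ratio 1.86, 0.793 to 5.35). In E5, which carried Paneth and goblet cell genes, it was 36.0 CPM in Ptger4-OFF and 31.0 CPM in Ptger4-ON, and in the enterocyte-like cluster E6 40.1 CPM in Ptger4-OFF and 49.9 CPM in Ptger4-ON. E3, led by Ndrg1 and Ero1l, had 58.1 CPM in 129 Ptger4-OFF cells, and its 19 Ptger4-ON cells were too few to give a level. Tgfbr1 was lowest in E6, with 1 UMI in Ptger4-OFF and 0 in Ptger4-ON, while E2 had 16.8 CPM in Ptger4-OFF and 14.9 CPM in Ptger4-ON.

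Other genes of the pathway were taken from 6 lists, in which some genes stand more than once. In fibroblasts 70 were measured with at least 20 UMIs, of which 12 were lower and 4 higher past 1.5-fold in Ptger4-OFF, and their median log2(OFF/ON) was -0.16. The background was 8.08% lower and 6.4% higher, with a median of 0.01. Among 28 TGF-beta response genes of fibroblasts, 8 were lower and 2 higher, with a median of -0.34. Among 7 other receptors and coreceptors 0 were lower and 0 higher, and among 14 SMADs and their regulators 2 were lower (Skil and Smad3) and 1 higher (Zfyve9, which encodes the SMAD anchor SARA).

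Ctgf, which encodes the matrix factor CCN2, was 138 CPM in Ptger4-OFF fibroblasts against 341 CPM in Ptger4-ON fibroblasts (ratio 0.404, 0.347 to 0.469). Tagln, a contractile gene, was 325 CPM in Ptger4-OFF and 647 CPM in Ptger4-ON (ratio 0.502, 0.453 to 0.555). Pmepa1, a TGF-beta induced inhibitor that binds SMADs, was 188 CPM in Ptger4-OFF and 331 CPM in Ptger4-ON (ratio 0.567, 0.494 to 0.649). Pmepa1 was lower in Ptger4-OFF in each of F2 to F5. It was 189 against 338 CPM in F2, 221 against 436 CPM in F3, 212 against 301 CPM in F4, and 148 against 255 CPM in F5, Ptger4-OFF against Ptger4-ON. Il11, a cytokine gene induced by TGF-beta in fibroblasts, had 1 UMI in Ptger4-OFF against 57 in Ptger4-ON (ratio 0.0168, 0.000418 to 0.0974). Of those 57 UMIs, 53 came from 6 cells of F3 and 21 from a single cell.

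In the opposite direction stood Cthrc1, a secreted matrix gene, with 20 UMIs in Ptger4-OFF and 6 in Ptger4-ON (ratio 3.19, 1.24 to 9.70), and Cnn1, which encodes calponin, at 34.2 CPM in Ptger4-OFF and 19.6 CPM in Ptger4-ON (ratio 1.74, 1.13 to 2.73). Bambi, a decoy receptor gene, had 14 UMIs in Ptger4-OFF and 7 in Ptger4-ON (ratio 1.91, 0.723 to 5.60). Of 11 other ligand and activation genes 2 were lower. They were Furin, the protease that cuts the ligand precursors, at 14.3 CPM in Ptger4-OFF and 30.6 CPM in Ptger4-ON (ratio 0.469, 0.282 to 0.764), and Itgb8, an integrin subunit that activates latent TGF-beta, with 4 UMIs in Ptger4-OFF and 17 in Ptger4-ON. Inhbb, which encodes the chain of activin B, was 159 CPM in Ptger4-OFF and 151 CPM in Ptger4-ON (ratio 1.06, 0.890 to 1.252).

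**Figure D4:**
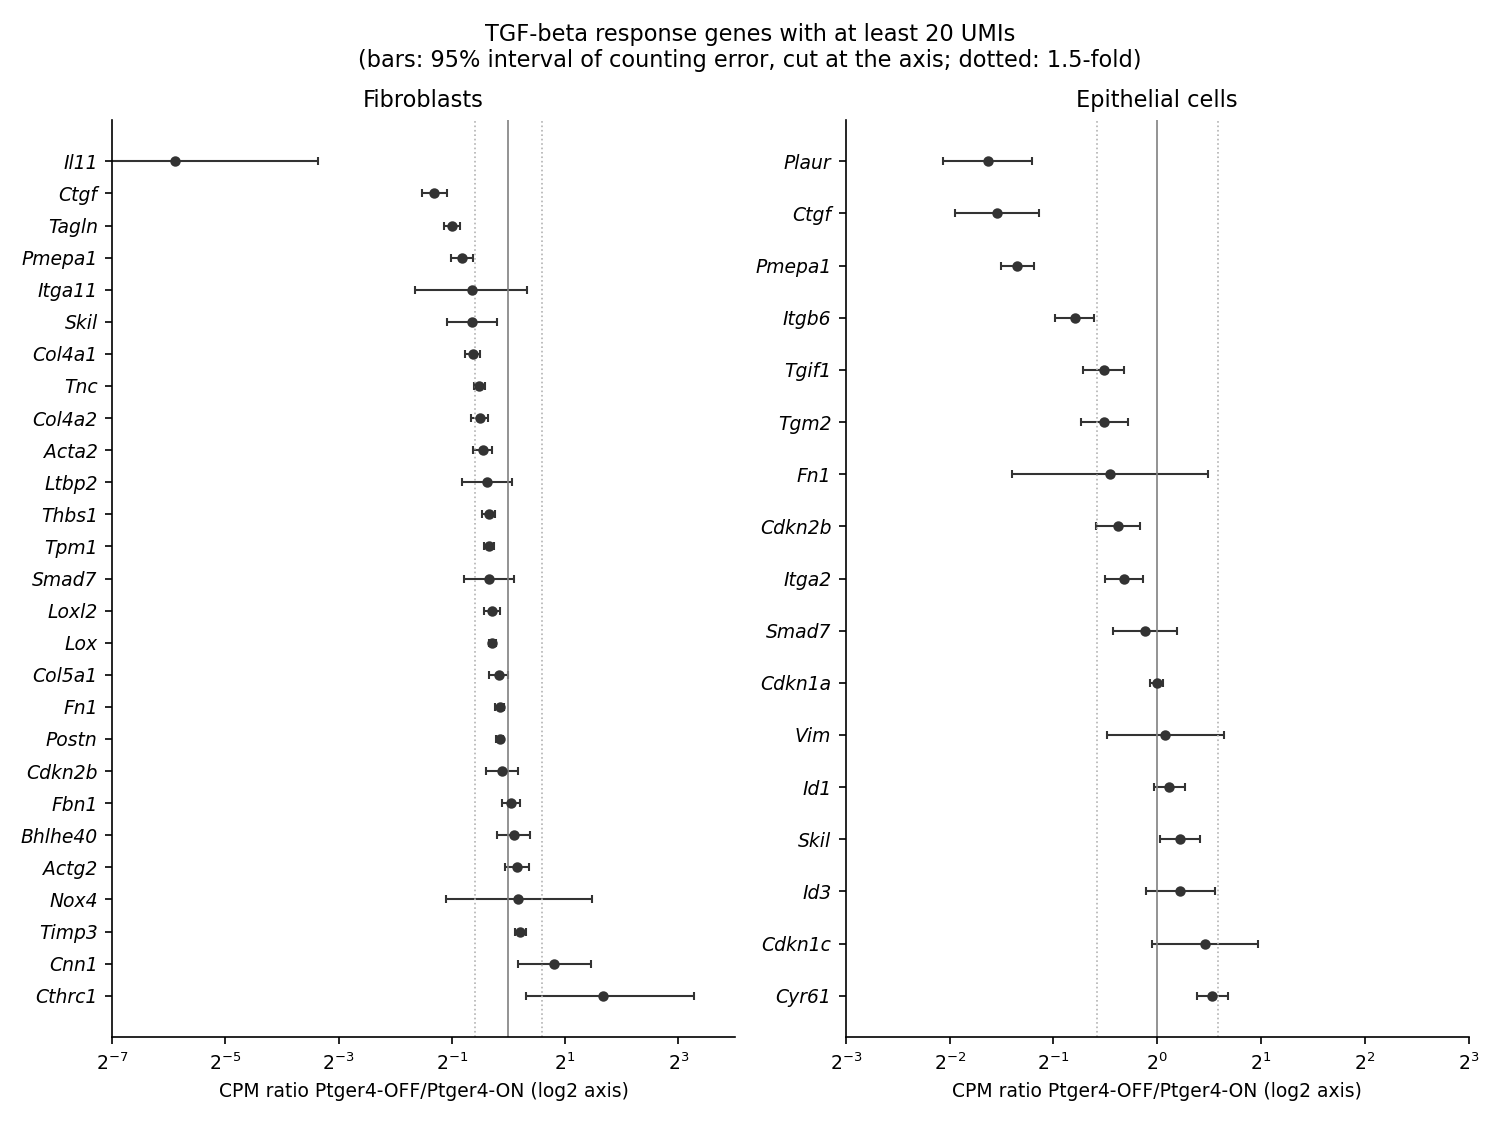
CPM ratio Ptger4-OFF/Ptger4-ON (log2 horizontal axis) of measured TGF-beta response genes of fibroblasts in fibroblasts (left) and of epithelium in epithelial cells (right), 1 library each; bars are 95% intervals of counting error, the solid line is a ratio of 1 and dotted lines are 1.5-fold. Ctgf (0.404 in fibroblasts, 0.344 in epithelial cells) and Pmepa1 (0.567 and 0.393 in fibroblasts and epithelial cells) lay left of 1 in both.

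In epithelial cells 59 pathway genes were measured, of which 15 were lower and 5 higher past 1.5-fold in Ptger4-OFF, and their median log2(OFF/ON) was -0.12. The background was 10.7% lower and 7.33% higher, with a median of -0.04. Of 6 other ligand and activation genes 5 were lower and 0 higher. Thbs1, whose product thrombospondin 1 activates latent TGF-beta, was 22.4 CPM in Ptger4-OFF and 63.6 CPM in Ptger4-ON (ratio 0.352, 0.291 to 0.424). Gdf15, a distant family ligand induced by stress, was 41.4 CPM in Ptger4-OFF and 86.1 CPM in Ptger4-ON (ratio 0.481, 0.416 to 0.556). Of 6 other receptors 0 were lower and 1 was higher, Acvr1c, with 31 UMIs in Ptger4-OFF and 12 in Ptger4-ON (ratio 1.88, 0.940 to 4.02). Of 16 SMADs and regulators 1 was lower, Smad3, at 8.34 CPM in Ptger4-OFF and 14.5 CPM in Ptger4-ON (ratio 0.574, 0.406 to 0.808), and 1 was higher, the inhibitory Smad6, with 15 UMIs in Ptger4-OFF and 6 in Ptger4-ON.

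Of 19 TGF-beta response genes of epithelium 5 were lower and 1 was higher, with a median of -0.32. Pmepa1 was 68.0 CPM in Ptger4-OFF and 173 CPM in Ptger4-ON (ratio 0.393, 0.352 to 0.438). It was 300.2 CPM in Ptger4-OFF and 328 CPM in Ptger4-ON in E1, while in E2 it was 47.2 CPM in Ptger4-OFF and 89.9 CPM in Ptger4-ON and in E4 33.9 CPM in Ptger4-OFF and 84.9 CPM in Ptger4-ON. Pmepa1 thus differed outside the fetal-like cluster too. Plaur, which encodes the urokinase receptor, was 8.87 CPM in Ptger4-OFF and 27.4 CPM in Ptger4-ON (ratio 0.323, 0.239 to 0.434). The libraries were closer within E1, which held 6.17% of Ptger4-OFF and 31.5% of Ptger4-ON epithelial cells. There, Ptger4-OFF against Ptger4-ON, Plaur was 47.0 against 56.6 CPM, Ctgf 59.8 against 75.2 CPM and Smad3 21.3 against 19.2 CPM. In E2 they were 2.32 against 10.6, 4.34 against 3.83 and 8.97 against 12.8 CPM. The part of the cluster mix in the class ratios was not tested.

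Genes with the most similar level over 20 points (clusters of at least 20 cells in each library) were sought among 10119 genes by Pearson's r of log2(CPM + 10). The points share class and library, so r describes the pattern only. For Inhba the likest genes were Stx2 (r = 0.986), Wnt5a (0.985) and Htr2b (0.983). These differed little between the libraries in fibroblasts, Wnt5a with 43.0 CPM in Ptger4-OFF and 45.0 CPM in Ptger4-ON. For Fst they were Creb3l2 (0.918), Fkbp1a (0.914) and Plk2 (0.900), for Tgfbr2 Rbms1 (0.9499), Ahnak2 (0.947) and Pea15a (0.946), and for Tgfb1 Gabarapl1 (0.909), Mmp3 (0.900) and Gpx3 (0.898). For Tgfbr1 they were Slc25a38 (0.850), Tsr2 (0.808) and Foxk2 (0.807), and for Acvr1 Mfsd1 (0.824), Fxyd5 (0.788) and Fam20c (0.788). Tgfb2, Tgfb3 and Tgfbi fell under the minimum of 100 UMIs and were not searched.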

How the data were processed

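The deposited values are whole-number counts for each gene and cell barcode, without normalization by the authors; that they count UMIs follows from the Drop-seq protocol per the labels. STAR 2.6 and build mm10 are named in the submitters' processing notes. How barcodes were chosen and genes annotated and counted is not given in the sources used here. The totals were 9490205 counts in 1599 barcodes (Ptger4-OFF) and 7408303 in 908 barcodes (Ptger4-ON). Barcodes entered with 300 genes or more and a mitochondrial share of 20% or less, and Scrublet in scanpy 1.11.5 (Python 3.11.15) called 4 and 6 doublets in Ptger4-OFF and Ptger4-ON, which were removed. Classes needed at least 3 marker UMIs with 80% from one side, which left 41 Ptger4-OFF and 46 Ptger4-ON barcodes without a class.

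UMIs were summed over each class and scaled to 1000000 (CPM) with exact Poisson intervals. Ratios have exact conditional binomial intervals, shares have exact Clopper-Pearson intervals, and all cover counting error only. A gene was counted from 20 UMIs in the class, summed over both libraries, and log2 values add 0.5 UMIs. Leiden clusters (igraph 0.11.9, resolution 0.5, 15 neighbours, 20 components, 2000 variable genes) were formed inside each class from both libraries. The ratio step was run on simulated Poisson counts, the model that its intervals assume. That run does not cover UMIs concentrated in few cells.

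The 9 genes, the pathway lists and the marker lists were chosen with earlier results of these data known. All 9 genes are named, as are up to 3 pathway genes at each end of each list past 1.5-fold and the 3 likest genes of each of the 9 with at least 100 UMIs. Some pathway genes that this rule chose stay in the counts but are not reported here. Inhbb and the cluster values given for pathway genes were picked after their values were seen. Alternatives were other classes, barcode filters, doublets kept, deep, paired or N-ending barcodes left out, TMM factors from edgeR 4.0.16 in R 4.3.3, factors from median ratios, cells weighted equally, a pseudocount of 1, other UMI minimums, folds and thinning, resolution 1.0, and fibroblast types by marker UMIs.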

Additional observations from a re-analysis of the deposited data

Results flagged for a closer look

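Tgfbr2 differed in direction between the classes. The ratio OFF/ON of its level was 1.19 in fibroblasts and 0.642 in epithelial cells. It also differed between epithelial clusters, with a ratio of 0.661 in the cycling cluster E2 and 1.86 in E4, the cluster led by Aqp4, Ifitm3 and Ttr, where Ptger4-ON had 6 UMIs. With 1 library in each condition, neither difference was tested. In fibroblasts the direction turned when each cell had equal weight (log2 ratio -0.06). The gap was widest in the cycling fibroblast cluster F1, at 246 CPM (35 UMIs) in Ptger4-OFF against 64.1 CPM (12 UMIs) in Ptger4-ON.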

How the results depend on the processing

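No paired analysis was possible because each condition had 1 library, and no replicate could be left out. Of 236 values of the 9 genes under the alternatives, 231 stayed inside the counting interval of the reported value, and 169 of 182 counts stayed within 1.5 times. Inhba in fibroblasts ranged from 1.86-fold to 2.18-fold higher in Ptger4-ON, and Fst from 1.39-fold to 2.06-fold. With equal weight for each cell, 1 gene (Tgfbi) was higher in Ptger4-OFF fibroblasts in place of 0, and Fst in fibroblasts and Tgfb1 in epithelial cells fell short of 1.5-fold (log2 ratios of -0.54 and -0.52). Past 2-fold, 1 of the 9 (Inhba) was lower in fibroblasts, and pathway genes numbered 4 lower and 1 higher in fibroblasts and 1 higher in epithelial cells. Past the lowest fold tried, under 1.5, they numbered 26 lower and 7 higher in fibroblasts and 24 lower and 8 higher in epithelial cells. With a minimum of 50 UMIs, 2 were higher in fibroblasts and 2 in epithelial cells, fewer genes being counted. Added after the data were seen, leaving out the fetal-like cluster left 1 of the 9 lower in epithelial cells (Fst, then under 20 UMIs, was not counted), and leaving out the cycling clusters left 3 pathway genes higher there. For the counts under these alternatives, no share of all genes is given here. With fibroblast types set by marker UMIs, the log2 ratio of Inhba in Grem1-type over other fibroblasts of Ptger4-OFF was -0.14 in place of 0.79, and the cause was not tested.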

Other observations

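Other genes of the pathway also marked fibroblast clusters. Inhbb, whose level over all fibroblasts differed little between the libraries, was 38.2 CPM in Ptger4-OFF and 67.6 CPM in Ptger4-ON in the Grem1-type cluster F3, against 212 CPM in both Ptger4-OFF and Ptger4-ON in F2. Acvrl1, which encodes the type I receptor ALK1, ran the other way, with 97.6 CPM in Ptger4-OFF and 145 CPM in Ptger4-ON in F3 and 54.1 CPM in Ptger4-OFF and 47.2 CPM in Ptger4-ON in F2. Tgfbr3, the coreceptor betaglycan, was 80.7 CPM in Ptger4-OFF and 54.1 CPM in Ptger4-ON in F3, and 138 CPM in Ptger4-OFF and 154 CPM in Ptger4-ON in F2. Itgb6, an epithelial integrin subunit that activates latent TGF-beta, was 212 CPM in Ptger4-OFF and 208 CPM in Ptger4-ON in the fetal-like cluster E1, and 32.1 CPM in Ptger4-OFF and 28.1 CPM in Ptger4-ON in the cycling cluster E2. These genes were picked after their values were seen, and the cluster values were not tested.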
